A study of Mus musculus with 6 samples.

Results

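The genes of the nuclear pore complex and of the receptors that carry cargo through it were examined in RNA from mouse embryonic stem cells (ESCs), pluripotent cells derived from the early embryo. Members were taken by gene symbol: the Nup and Nupl series, Ndc1, the Pom121 genes, Tpr and Rae1 for the pore, and the Kpna, Kpnb, Ipo and Xpo series, Nxf1, Nxt1 and Nxt2 for the receptors, with Xpo5 left out. This gave 49 of the 17912 genes in the table. A total of 45 fell into 10 groups by role, and the other 4 are a pseudogene and 3 genes related to pore proteins by name. The symbol rule itself uses no expression value, but the genes were chosen with earlier results of these data known.

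Poly(A) RNA was sequenced in 6 libraries. The genotype of 3 is given as WT (control replicates 1, 2 and 3), and that of the other 3 as EXOSC2_KD, titled as clones 5, 6 and 7 and carrying a short hairpin RNA against Exosc2. EXOSC2 belongs to the RNA exosome, which degrades and trims RNA from its 3′ end. Each knockdown library is 1 clone, and the labels do not say whether the controls carry a control hairpin, share a parent line with the clones or come from separate cultures. The p-values therefore measure only the spread between these libraries, which may be technical. All 6 are labelled with the same tissue and cell type, and no treatment or time is given.

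The nuclear pore is a large ring of repeated subcomplexes set into the nuclear envelope. The outer ring is built from the Y complex, the inner ring anchors it to the membrane and holds the channel proteins, and filaments face the cytoplasm and form a basket on the nuclear side. Importins carry proteins inward, exportins carry proteins and RNA outward under the control of the GTPase Ran, and the NXF1 and NXT heterodimer takes mRNA out. In ESCs the amount of some pore proteins is known to change as cells leave pluripotency.

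Values are the deposited scaled counts, reads per gene divided by a size factor for the library. Recovered reads ranged from 21107761 to 26494985 per library. Exosc2 (ENSMUSG00000039356.15, chr2:31670715-31681349 in GRCm38) had 2457, 2473 and 1954 scaled counts in the controls against 1138, 997 and 981 in the clones, each in the order of the replicate numbers, as all values below. Its clone mean was 45.3% of the control mean, a log2 fold change of -1.14 ± 0.13 (SE; limma, adjusted p = 5.11e-05; exact two-sided permutation p = 0.1, the smallest 3 against 3 can give). The ESC label did not hold for the clones by its markers: 9 of 10 ESC markers were lower, with a median log2 fold change of -9.92, and Zfp42 and Utf1 had no reads there. Their summed level, 116140 to 127693 in controls and 91418 to 97469 in clones, was carried in the clones by Pou5f1, the 1 marker that was higher. Fibroblast markers were higher for 8 of 9 tested (summed level 9131 to 10301 in controls, 50343 to 65290 in clones) and surface epithelium markers for 6 of 9 (22958 to 36744 against 38782 to 43927, with Krt6a at 0 in the controls). The other 3 epithelial markers, Cdh1 (log2 fold change -4.02), Epcam (-2.57) and Krt18 (-2.99), were lower. Trophoblast markers were lower for 5 of 6 tested (3930 to 4467 against 1027 to 1283, with Cdx2 at 0 in the clones). Proliferation genes were lower for 15 of 20 and higher for 0, with summed levels of 176531 to 195865 in controls and 98659 to 105928 in clones. The part of these differences in the values given next was not tested. In bulk RNA, fewer cells of a type and less RNA per cell cannot be told apart.

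As a whole set, pore and receptor transcripts were more often lower than higher in the clones. The receptors alone had a median log2 fold change of -0.09, near the -0.07 of all genes tested. The test called 28 of 48 genes lower and 6 higher, and the other 14 were not called (limma on log2(scaled count + 1), Benjamini-Hochberg adjusted p under 0.05 over all 15179 genes tested). Among all genes tested, 38.3% were called lower and 35.2% higher, 73.5% in either direction. The edgeR test on recovered reads called 28 lower and 5 higher, against 39.3% and 34.2% of all genes tested. The median log2 fold change was -0.42 over the 48 genes and -0.07 over all genes tested. At 2-fold or more, 11 fell and 4 rose, where the background was 25.7% lower and 22.4% higher. In 28 genes every clone lay below every control and in 6 every clone lay above, against 40.6% and 36.7% of all genes tested. Most of these genes are abundant: 40 had a mean of at least 1000 scaled counts, and among all genes at that level 33% were called lower and 42% higher. Kpna7, Nup62cl and Pom121l2 passed the minimum mean of 10 only through the group in which they are high, so these 3 calls say little beyond that. Together the 49 genes held 1.15%, 1.01% and 1.12% of the scaled counts in the controls and 0.679%, 0.63% and 0.637% in the clones. Their summed level in the clones was 63.9% of that in the controls.

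**Figure D1:**
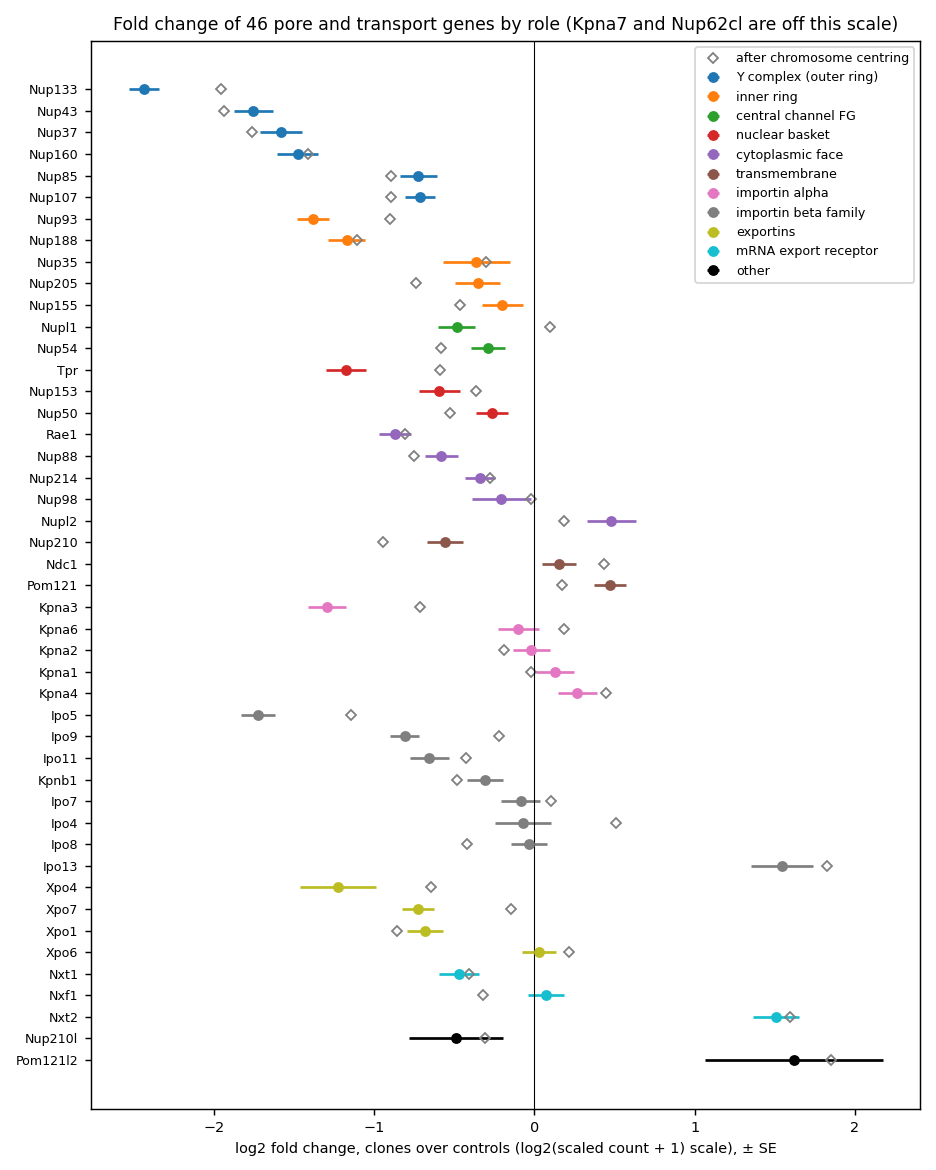
Log2 fold change (clones over controls, on log2(scaled count + 1)) with its standard error (coloured dots and bars, 3 libraries a group) and after chromosome centring (open diamonds) for 46 genes, ordered and coloured by role, with Kpna7 and Nup62cl off this scale. All 6 Y complex genes lie left of 0, while several other groups, the importin alpha and transmembrane groups among them, lie on both sides.

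The pore proteins, 24 genes in 6 role groups, were lower for 18, higher for 2 and not called for 4, with a median log2 fold change of -0.57 and a summed level of 59.8% of the controls. The transport receptors, 21 genes in 4 role groups, were lower for 9, higher for 3 and not called for 9, with a median of -0.09 and a summed level of 67.3%. The receptor sum, 147833 in the controls and 99463 in the clones, is weighted to its most abundant genes. These are Ipo5 (mean 37786 in controls and 11397 in clones) and Kpnb1 (27408 and 22073). As shares, 75.0% of the pore proteins and 42.9% of the receptors were lower, against 38.3% of all genes tested, so the lower share for the receptors was near the background. Called higher were 8.33% of the pore proteins and 14.3% of the receptors, against 35.2% of all genes tested. Whether these 2 classes differ from each other was not tested. The falling pore genes and the split among receptors are described next by role. Each role group holds few genes, and its counts are read against the same 38.3% lower and 35.2% higher of all genes tested.

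All 6 Y complex genes fell, with a median log2 fold change of -1.53 and a summed level of 39.0% of the controls. The Y complex is the scaffold of the outer ring and also gathers at kinetochores in mitosis. Nup133, the subunit at the end of the stalk (chr8:123897123-123949265), had 6163, 5805 and 6005 scaled counts in the controls and 1177, 1071 and 1066 in the clones. The clones formed a narrow group at 18.4% of the control mean, a log2 fold change of -2.44 ± 0.09 (SE, n = 3 and 3; limma adjusted p = 1.16e-07). Genes on the opposite strand overlap 10.4% of its exon length. Nup43, a propeller-shaped subunit of the short arm (chr10:7667503-7678881), had 2698, 2232 and 2290 scaled counts in the controls and 752, 732 and 649 in the clones, or 29.5% (-1.76 ± 0.12, adjusted p = 2.31e-06). Nup37, another propeller, which binds NUP160 (chr10:88146992-88178390), had 1864, 1648 and 1390 in the controls and 546, 554 and 522 in the clones, or 33.1% (-1.58 ± 0.13, adjusted p = 7.63e-06). For both propellers the lowest control was more than 2-fold above the highest clone. Nup160, the long arm of the Y, had 5432, 4403 and 5747 in the controls and 2019, 1838 and 1708 in the clones, or 35.7% (-1.48 ± 0.13, adjusted p = 8.89e-06). Nup85, the short-arm scaffold, moved less: 4807, 4966 and 3887 scaled counts in the controls and 2846, 2664 and 2706 in the clones, or 60.1% (-0.73 ± 0.12, adjusted p = 0.000449). Nup107, the partner of Nup133 in the stalk, stood at 61.0% of controls (3465 ± 154 against 2113 ± 73.2, mean ± SD). The stalk partners Nup133 and Nup107 thus had log2 fold changes of -2.44 and -0.71, a difference between genes that was not tested. Per kilobase of exon, Nup133 and Nup107 were at 852 and 900 scaled counts in the controls and 157 and 549 in the clones. Of the Y complex genes outside the symbol rule, Seh1l (5960 ± 968 to 2374 ± 259, mean ± SD, log2 fold change -1.32) and Ahctf1 (-0.82), whose product ELYS brings the complex to chromatin, also fell, while Sec13 (0.29, adjusted p = 0.0588) was not called. That makes 8 of 9 lower, without Nup98, whose transcript also codes for the Y complex subunit NUP96 and which was not called. Ahctf1 and Sec13 were named after their values were seen.

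**Figure D2:**
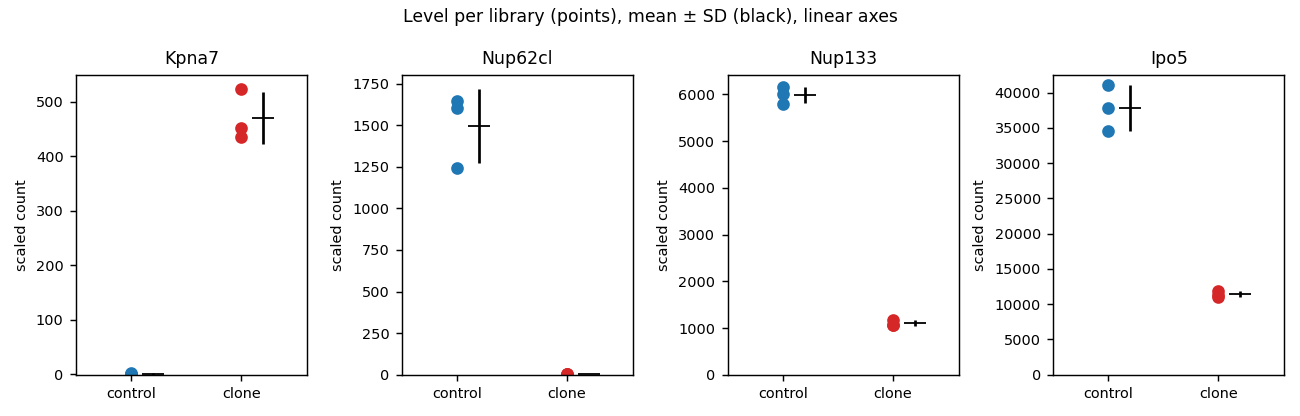
Scaled counts of Kpna7, Nup62cl, Nup133 and Ipo5 in the controls and the clones on linear axes, each point 1 library, with mean ± SD in black. Nup133 stands at a mean of 5991 in the controls and 1105 in the clones, and Kpna7 and Nup62cl lie near 0 in opposite groups.

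The inner ring, the membrane-anchoring core that holds the channel, had 3 lower genes of 5, none higher, and a summed level of 58.4%. Nup93, the linker that holds the ring together, had 8322, 7744 and 7241 scaled counts in the controls and 3155, 2928 and 2850 in the clones, or 38.3% (-1.38 ± 0.10, adjusted p = 2.87e-06). Nup188 and Nup205 are paralogous large solenoid proteins that each bind NUP93. Nup188 had 6274, 7111 and 8142 in the controls and 3117, 3246 and 3128 in the clones, or 44.1% (-1.17 ± 0.11, adjusted p = 1.87e-05). Nup205 had 6868, 5780 and 8533 in the controls and 5729, 5433 and 5194 in the clones, or 77.2% (-0.36 ± 0.14, adjusted p = 0.0491). The clones lay below the controls for both paralogues, but for Nup205 control replicate 2 was close to clone 5. The Nup205 call was lost without control replicate 1 (-0.37), control replicate 3 (-0.21) or any 1 of clones 5, 6 and 7 (-0.39, -0.35 and -0.32), and with a pseudocount of 0.5, no filter or eBayes without trend (-0.36 each). Nup155 (-0.20, adjusted p = 0.181), which touches the membrane, and Nup35 (-0.36, adjusted p = 0.142), which joins NUP93 to NUP155, did not pass. Control replicate 2 was low for Nup155 and control replicate 1 high for Nup35. Without control replicate 2 Nup155 was called lower (-0.32), and without control replicate 3 so was Nup35 (-0.53).

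The nuclear basket, the filaments on the nuclear side, had 3 lower genes of 3 and a summed level of 55.3%. Tpr, the coiled-coil protein that forms the basket, had 14007, 11182 and 13980 scaled counts in the controls and 6335, 5549 and 5376 in the clones, or 44.1% (-1.18 ± 0.12, adjusted p = 3.07e-05). Nup153, which ties the basket to the pore, fell from 5735 ± 790 to 3779 ± 339 (mean ± SD, log2 fold change -0.60). Nup50, a mobile basket protein that helps release importin cargo, was at 3103 ± 227 and 2576 ± 106 (-0.27, adjusted p = 0.0373). This smaller difference was not called without control replicate 1 (-0.22) or clones 5 (-0.30), 6 (-0.25) or 7 (-0.25), or with eBayes without trend.

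In the central channel, whose proteins carry the phenylalanine-glycine repeats that form the permeability barrier, both genes found were called lower. Nup62, another channel gene, was not among the genes found. Nupl1, which encodes NUP58, had 3440, 2835 and 3489 scaled counts in the controls and 2453, 2224 and 2265 in the clones (71.1%, -0.49 ± 0.11, adjusted p = 0.00408). Its exons overlap other genes on the same strand over 55.4% of their length, mainly Atp8a2, so its count is uncertain. Nup54, its partner, was at 2315 ± 146 and 1897 ± 159 (-0.29, adjusted p = 0.0367), a call lost without control replicates 1 (-0.26) or 3 (-0.26) or clones 6 or 7 (-0.25 each), or with eBayes without trend.

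The cytoplasmic face, where exported mRNA is released, had 3 lower genes, 1 higher and 1 not called of 5. Nup88, which holds the filament proteins, had 6442, 5496 and 5528 scaled counts in the controls and 4032, 3979 and 3645 in the clones, or 66.7% (-0.58 ± 0.10, adjusted p = 0.000899). Rae1, an mRNA export factor that also acts at the spindle, was at 54.6% of controls (3601 ± 291 against 1967 ± 52.1, -0.87, adjusted p = 5.68e-05). These 2 genes lay apart in every library. Nup214, the partner of NUP88, was at 79.0% (-0.34, adjusted p = 0.00903), not called without clone 6 (-0.31). Nupl2, encoding a binding site for the mRNA export factor GLE1, rose from 394 ± 60.9 to 546 ± 25 (0.48, adjusted p = 0.0182), not called without clone 5 (0.48) or clone 6 (0.45) or with quantile scaling (0.31). Nup98, a mobile channel and filament protein, had 1917 to 3300 scaled counts in the controls and 2134 to 2353 in the clones, with a median of 2622 and 2151. The groups overlapped for Nup98 (-0.21, adjusted p = 0.327), and without control replicate 2 it was called lower (-0.41).

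The 3 transmembrane genes split. Pom121, which is needed for pore assembly in interphase, had 2559, 2953 and 2535 scaled counts in the controls and 3638, 3687 and 3790 in the clones, or 138% (0.47 ± 0.10, adjusted p = 0.00247). Nup210, a glycoprotein of the lumenal ring whose level is known to rise as ESCs differentiate to neural cells, fell from 2882 ± 276 to 1957 ± 145 (67.9%, -0.56, adjusted p = 0.00175). Ndc1, which anchors the pore in the membrane, was at 2472 ± 209 and 2744 ± 157 (0.15, adjusted p = 0.215). The summed level of the 3 was 105% of the controls. For Pom121, 11.9% of its exon length overlaps Nsun5 on the opposite strand.

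**Figure D3:**
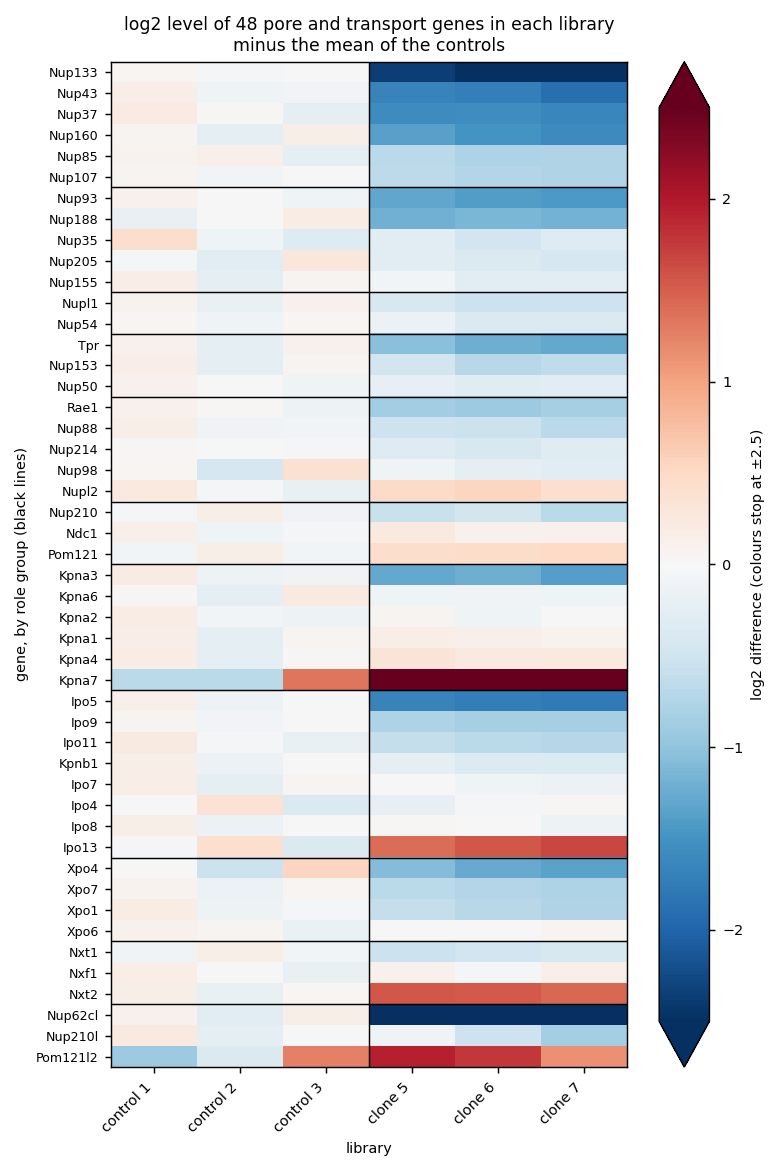
Log2(scaled count + 1) of 48 genes in each of the 6 libraries, less the mean of the 3 controls, with black lines between role groups and colours that stop at ±2.5. The Y complex rows are low in all 3 clones, and Kpna7 and Nup62cl pass the ends of the colour scale there.

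The importin alpha genes encode the adaptors that recognise classical nuclear localisation signals and join the cargo to importin beta. Of 6, 1 rose, 1 fell and 4 did not pass. Kpna7, the oocyte and early embryo form of the adaptor (chr5:144983519-145084030), had 0, 0 and 3.01 scaled counts in the controls and 435, 452 and 524 in the clones. In reads these were 0, 0 and 3 against 437, 440 and 568. The ratio of means was 468, with a 95% interval of 160 to 2270 from the counting error of the 3 control reads alone (log2 fold change 8.21 ± 0.52, adjusted p = 1.47e-06). Every clone held the transcript at a like level, and among the controls only replicate 3 had any read. Arpc1a overlaps 1.6% of the exon length of Kpna7 on the opposite strand. Kpna3 moved the other way: 8449, 6712 and 6805 scaled counts in the controls and 2990, 3112 and 2799 in the clones, or 40.5% (-1.30 ± 0.12, adjusted p = 1.17e-05). The clone range was far below the controls for Kpna3. Kpna2, the adaptor most associated with ESCs, had 5667, 4750 and 4526 in the controls and 5169, 4602 and 4919 in the clones (-0.02 ± 0.11, adjusted p = 0.884). Kpna1 had 4673, 3519 and 4368 in the controls and 4659, 4538 and 4438 in the clones (0.13 ± 0.12, adjusted p = 0.359). Kpna6 had 3866, 3198 and 4423 against 3523, 3570 and 3532 (-0.10 ± 0.13, adjusted p = 0.495). Control and clone values overlapped for these 3 genes. Kpna4, the closest paralogue of Kpna3, had 3925, 2940 and 3520 in the controls and 4309, 4038 and 4077 in the clones, with all clones above all controls, but did not pass (0.27 ± 0.12, adjusted p = 0.0738). Without control replicate 1 it did (0.36).

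Divided by exon length, the shares of Kpna3 and Kpna2 in the adaptor family differed by the most points between the groups. Kpna3 made up 34.8% ± 1.16 of the family's length-scaled counts in the controls and 17.0% ± 1.06 in the clones (SD, n = 3 each). Kpna2 made up 35.5% ± 2.0 and 41.9% ± 1.48, so Kpna2 and Kpna3 were near each other in the controls and not in the clones. Kpna4 made up 7.91% and 11.4%, Kpna1 10.1% and 13.2%, and Kpna7 0.0068% and 3.69%. In each of these 5 the groups did not overlap, with an exact two-sided permutation p of 0.1, the smallest possible. The levels of all genes tested did not overlap for 36.7% with clones higher and 40.6% with clones lower. Shares of a family add up to a whole, so a smaller share of Kpna3 raises the others, and these 5 are not separate results. Kpna6 made up 11.7% and 12.9% (exact permutation p = 0.4).

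The sequence before the RefSeq start of Kpna7 is printed because this gene had the largest rise. It is the 250 bases at chr5:145009637-145009886 of GRCm38.p6, minus strand, written 5′ to 3′ along the gene, and it lies inside the longer GENCODE gene body of Kpna7. Capitals mark the CCAAT box (CCAAT or its reverse complement), found 1 time. The stretch holds 3 CpG dinucleotides.
Kpna7: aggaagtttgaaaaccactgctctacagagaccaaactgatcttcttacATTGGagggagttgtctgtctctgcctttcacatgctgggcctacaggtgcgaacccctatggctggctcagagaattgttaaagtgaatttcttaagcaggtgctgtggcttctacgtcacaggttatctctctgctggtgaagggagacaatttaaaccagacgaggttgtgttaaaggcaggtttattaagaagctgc
The window lacks a GC box (GGGCGG on either strand), and it is poor in CpG for this family, whose promoters had a median of 20.

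The importin beta family, the receptors that bind the pore directly, had 4 lower genes, 1 higher and 3 not called of 8. That is 50% lower and 12.5% higher, against 38.3% and 35.2% of all genes tested. The median log2 fold change was -0.20. The summed level was 60.5%, a sum weighted to the 2 most abundant genes, Ipo5 and Kpnb1. Ipo5, the receptor of ribosomal proteins and histones among other cargo (chr14:120911224-120947999), had 41037, 34499 and 37822 scaled counts in the controls and 11839, 11323 and 11030 in the clones. That is 30.2% of the control mean (-1.73 ± 0.11, adjusted p = 1.21e-06), with no control below 34499. Kpnb1, importin beta itself, had 30353, 24810 and 27062 in the controls and 23269, 21461 and 21488 in the clones, or 80.5% (-0.31 ± 0.11, adjusted p = 0.034), a call lost without control replicate 1 (-0.23) or clones 5 (-0.35), 6 (-0.29) or 7 (-0.29), or with eBayes without trend. Per kilobase of exon, Ipo5 stood at 6297 scaled counts and Kpnb1 at 4159 in the controls, and at 1899 and 3349 in the clones. The order of the 2 most abundant receptors was thus opposite in the 2 groups. Ipo5 made up 45.8% ± 1.14 of the family's length-scaled counts in the controls and 23.4% ± 0.36 in the clones, and Kpnb1 30.2% ± 0.87 and 41.3% ± 0.95 (SD, n = 3 each; exact two-sided permutation p = 0.1 for both).

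Ipo13, a receptor that works in both directions (chr4:117894486-117914999), had 577, 796 and 463 scaled counts in the controls and 1581, 1757 and 1909 in the clones, or 286% (1.55 ± 0.19, adjusted p = 9.13e-05). Each clone was above every control. Ipo9, a histone importer, fell from 8778 ± 428 to 5005 ± 123 (57.0%, -0.81, adjusted p = 4.64e-05), and Ipo11, an importer of ubiquitin-conjugating enzymes, from 2977 ± 432 to 1875 ± 78.1 (63.0%, -0.66, adjusted p = 0.00112). Ipo4 (-0.07), Ipo7 (-0.09) and Ipo8 (-0.03) did not pass, with adjusted p of 0.716, 0.547 and 0.796, and their groups overlapped. Ipo4, another importer of ribosomal proteins and histones, overlaps Gm49378 on the same strand over 55.3% of its exon length, so its count is uncertain.

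**Figure D4:**
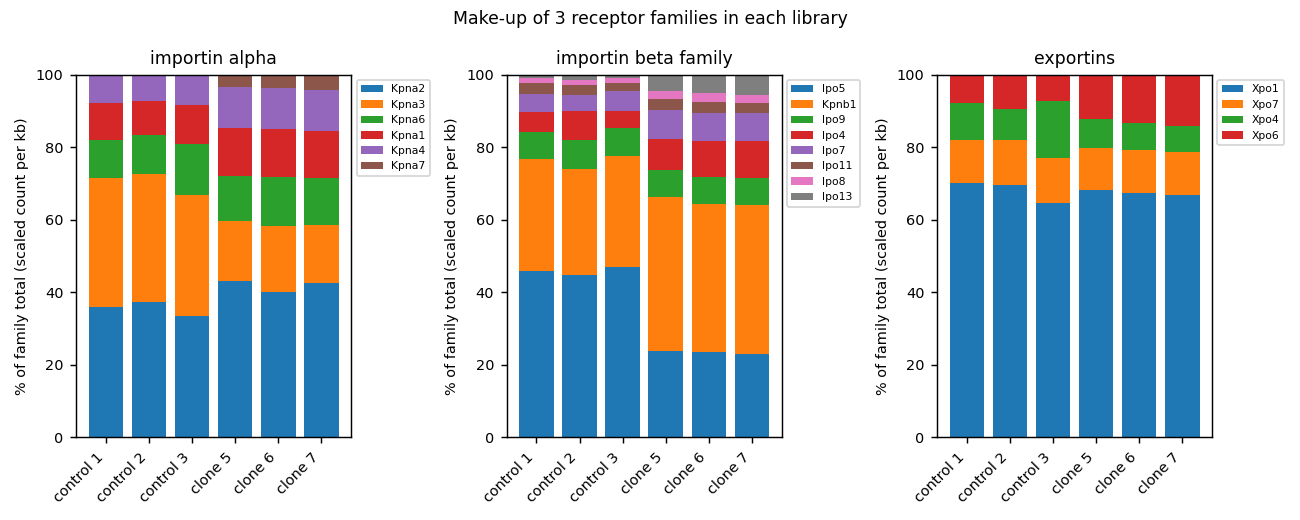
Share of each gene in its family's length-scaled counts (percent, stacked) in each of the 6 libraries, for the importin alpha genes, the importin beta family and the exportins. Kpna3 and Ipo5 take smaller shares in all 3 clones than in any control, and Kpnb1 takes a larger one.

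The start regions of Ipo5, Ipo13 and Nxt2 are printed because after Kpna7 these had the largest log2 fold changes of the 21 transport receptor genes. That of Ipo5, chr14:120910944-120911193, plus strand, holds 42 CpG, 82.4% G and C, 2 CCAAT boxes and 4 GC boxes. That of Nxt2, chrX:142227687-142227936, plus strand, lies within the longer GENCODE body of Nxt2 and holds 8 CpG, 46% G and C and 1 CCAAT box. That of Ipo13, chr4:117915000-117915249, minus strand, holds 28 CpG, 70.4% G and C and 1 GC box. All 3 are 250 bases before the RefSeq start in GRCm38.p6, 5′ to 3′, with capitals on CCAAT boxes and GC boxes on either strand.
Ipo5: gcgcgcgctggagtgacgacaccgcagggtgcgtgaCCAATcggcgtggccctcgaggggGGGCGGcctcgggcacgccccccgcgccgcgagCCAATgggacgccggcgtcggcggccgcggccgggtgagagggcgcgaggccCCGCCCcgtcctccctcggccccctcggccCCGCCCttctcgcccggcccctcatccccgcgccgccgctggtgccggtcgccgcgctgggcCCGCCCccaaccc
Ipo13: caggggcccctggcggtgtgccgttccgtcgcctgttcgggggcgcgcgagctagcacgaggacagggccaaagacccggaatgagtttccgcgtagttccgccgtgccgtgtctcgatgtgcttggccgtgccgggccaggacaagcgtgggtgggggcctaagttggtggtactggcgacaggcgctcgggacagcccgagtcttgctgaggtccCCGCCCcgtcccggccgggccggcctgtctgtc
Nxt2: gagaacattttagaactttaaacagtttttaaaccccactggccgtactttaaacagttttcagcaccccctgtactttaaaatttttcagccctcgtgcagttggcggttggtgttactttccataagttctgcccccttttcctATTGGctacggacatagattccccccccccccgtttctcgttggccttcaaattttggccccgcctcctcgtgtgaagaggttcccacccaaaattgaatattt
Among the 6 higher genes, Pom121, Ipo13 and Nupl2 had 33, 28 and 15 CpG, and Nxt2, Kpna7 and Pom121l2 had 8, 3 and 2. The lower genes with a promoter entry ran from 5 (Nup160) to 42 (Ipo5). A relation of CpG content to direction was not tested. A match in such a window is a description of its letters only.

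Among the exportins, 3 of 4 fell and none rose, where 38.3% of all genes tested were lower and 35.2% higher. Xpo1 (CRM1), the receptor of leucine-rich export signals, had 14820, 11974 and 12585 scaled counts in the controls and 8619, 8047 and 7764 in the clones, or 62.0% (-0.68 ± 0.11, adjusted p = 0.000498). Xpo4, an exporter that also imports Sox factors, had 3214, 2183 and 4586 in the controls and 1506, 1319 and 1258 in the clones, or 40.9% (-1.23 ± 0.24, adjusted p = 0.00136). The controls of Xpo4 spread over more than 2-fold, and all lay above the clones. Xpo7 fell from 6235 ± 562 to 3758 ± 133 (60.3%, -0.73, adjusted p = 0.000197). Xpo6, the exporter of actin and profilin, was at 3711 ± 364 and 3773 ± 110 (0.03, adjusted p = 0.817), with overlapping groups. Per length, Xpo1 held 68.1% of the total of these 4 exportins in the controls and 67.4% in the clones (exact permutation p = 0.8). Xpo6 held 8.23% and 13.3%, Xpo4 11.5% and 7.53% (both p = 0.1, exact permutation), and Xpo7 12.2% and 11.8% (exact permutation p = 0.2). Other exportins, Xpo5 among them, are not in this total.

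In the mRNA export receptor, the heterodimer of NXF1 with NXT1 or NXT2, the cofactors changed in opposite directions. Nxf1, the large subunit, had 5175, 4697 and 4102 scaled counts in the controls and 4993, 4555 and 5067 in the clones (0.07 ± 0.11, adjusted p = 0.594), with overlapping groups. Nxt2 (chrX:142226770-142239692) had 296, 233 and 275 in the controls and 789, 779 and 720 in the clones, or 284% (1.51 ± 0.14, adjusted p = 1.62e-05). Nxt1, the other cofactor, fell from 799 ± 73.3 to 575 ± 27.5 (72.0%, -0.47, adjusted p = 0.00767). Nxt2 made up 10.6% ± 1.92 of the length-scaled cofactor counts in the controls and 31.8% ± 2.07 in the clones (SD, n = 3 each; exact permutation p = 0.1). Without length correction these shares were 25.2% and 57.0%, so which cofactor was the larger in the clones depends on that correction.

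The 4 genes outside the role groups included the largest fall. Nup62cl, a gene similar to the channel gene Nup62 by name (chrX:140006805-140062712), had 1606, 1242 and 1643 scaled counts in the controls and 2.98, 7.19 and 3.69 in the clones. In reads these were 1696, 1150 and 1636 against 3, 7 and 4, a ratio of means of 324 with a 95% interval of 193 to 592 from the counting error of the 14 clone reads alone (log2 fold change -8.12 ± 0.30, adjusted p = 9.22e-08). All 3 clones held only a few reads. Pom121l2, a Pom121-like gene, had 1.89, 3.24 and 12.1 scaled counts in the controls and 19.9, 17.5 and 11.1 in the clones (1.62 ± 0.55, adjusted p = 0.0259), with overlapping groups, 17 control reads and 49 clone reads in all. That call was lost without control replicates 1 (1.17) or 2 (1.44) or clones 5 (1.46) or 6 (1.55), and in the edgeR and DESeq2 tests. Nup210l, related to Nup210, was at 37.7 ± 6.61 and 26.9 ± 7.34 (-0.49, adjusted p = 0.163). Kpna2-ps, a pseudogene whose whole exon length overlaps Med20 on the opposite strand, had 4 control reads and 14 clone reads and was not tested.

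The stretch before the start of Nup62cl is printed as the counterpart of Kpna7. It spans chrX:140062713-140062818 in GRCm38.p6, minus strand, 106 bases that begin upstream and end 144 bases before the RefSeq start, the rest of the window being annotated as exon. It holds 5 CpG, 2 CCAAT boxes and 1 GC box, in capitals.
Nup62cl: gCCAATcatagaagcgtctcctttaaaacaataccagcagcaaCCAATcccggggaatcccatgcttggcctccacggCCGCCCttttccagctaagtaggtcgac
Its CCAAT boxes lie on the strand as written, and its GC box is read on the other strand.

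Over the family, 39 of 49 genes matched an entry in the RefSeq promoter table. In the 250 bases before the start, 20 (51.3%) held a CCAAT box and 24 (61.5%) a GC box on either strand, against 34.5% and 33% of 27025 promoters in the table. A TATA box (TATAAA) was found in 2 (5.13%), against 13%, and the octamer ATGCAAAT in 0, against 1.62%. The E-box CACGTG was found in 4 (10.3% against 6.04%), the ETS motif CCGGAAGT in 3 (7.69% against 2.92%), the NRF1 motif in 2 (5.13% against 0.777%) and either of the E2F motifs TTTCCCGC and TTTGGCGC in 2 (5.13% against 1.35%). Median CpG content was 20, from 2 to 42, against 6, and G and C made up 62.4% against 52%. The table also holds promoters of noncoding genes, and these comparisons were not tested.

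Median log2 fold changes differed between chromosomes, at -0.60 on chromosome 1, -0.49 on chromosome 8 and -0.57 on chromosome 14 over all genes tested there. These were the 3 lowest chromosome medians and were picked after their values were seen. Positions along a chromosome were not examined, and the cause of the differences was not tested. Of the pore and receptor genes, 10 lay on these chromosomes and 9 of the 10 were lower: Tpr, Ipo9, Nup133, Nup93, Ipo5, Kpna3, Xpo4, Xpo7 and Nupl1. On the other chromosomes 19 of 38 tested were lower. Of all genes tested, 52.9% were lower on those 3 chromosomes and 35.8% on the others. Chromosome 5 had a median of 0.29, with 45.1% of genes tested higher, and held 3 of the 6 higher genes: Kpna7, Nupl2 and Pom121. After the median deviation of each chromosome was subtracted in each library, 29 genes were called lower and 7 higher (36.7% and 36% of all genes tested), with a median of -0.41, and 26 were lower both ways. Of the 9 lower genes on those chromosomes, 7 stayed called, with smaller sizes: Nup133 at -1.96, Ipo5 at -1.15, Nup93 at -0.90, Kpna3 at -0.72, Xpo4 at -0.65, Tpr at -0.59 and Ipo9 at -0.22. Xpo7 (-0.15) and Nupl1 (0.09) were no longer called, nor were Nupl2 (0.18) and Pom121 (0.17) on chromosome 5. Newly called were Nup155 (-0.46), Ipo8 (-0.42) and Nxf1 (-0.32) as lower and Ipo4 (0.51), Kpna4 (0.45) and Ndc1 (0.44) as higher. The 6 Y complex genes kept their call, with a median of -1.59. Outside the symbol rule, Seh1l (-1.17) and Ahctf1 on chromosome 1 (-0.24) stayed lower.

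**Figure D5:**
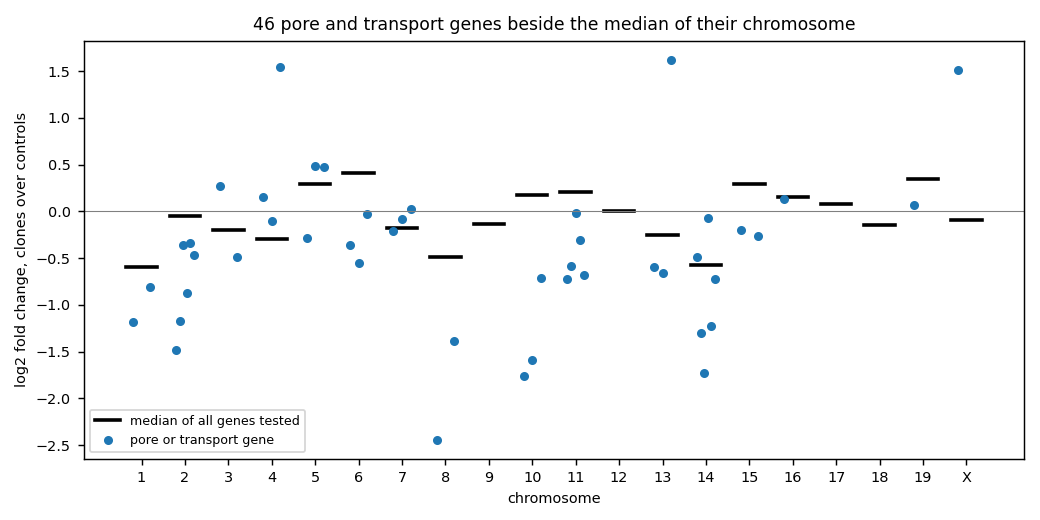
Log2 fold change (clones over controls) of 46 genes by chromosome (dots), beside the median of all genes tested on that chromosome (black bars), with Kpna7 and Nup62cl left out. Nup133 on chromosome 8, at -2.44, and Ipo5 on chromosome 14, at -1.73, lie well below medians that are themselves under 0.

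The libraries within a group differed less among the clones. The median coefficient of variation of these genes was 12.3% over the controls and 5.33% over the clones, and it was larger in the controls for 43 of 48 (89.6%). Over all genes tested the medians were 17.3% and 9.08%, and the controls were larger for 72.7%.

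Other genes of nuclear transport, listed apart from the symbol rule, gave 12 higher, 30 lower and 20 not called of 62 tested, with a median of -0.31. That is 48.4% lower and 19.4% higher, against 38.3% and 35.2% of all genes tested, and the smaller lists are read against the same shares. After chromosome centring 41.9% were lower and 19.4% higher, against 36.7% and 36% of all genes tested, with a median of -0.26. Among 7 other pore components, 4 fell and 1 rose: Tmem33, a membrane protein that associates with the pore, went from 1501 ± 175 to 5344 ± 181 (1.84, adjusted p = 1.16e-06). Among 9 other karyopherins and carriers, 5 fell and 2 rose, with Snupn, the adaptor for splicing snRNPs, at 698 ± 53.7 and 269 ± 31.8 (-1.38) and Nutf2, the importer of Ran, at 2206 ± 492 and 876 ± 39.5 (-1.31). After centring 4 were lower and 1 higher, with a median of 0.06, and Snupn was at -1.24 and Nutf2 at -0.83. The Ran cycle had 0 higher, 3 lower and 4 not called of 7. Its share of 42.9% lower is near the 38.3% of all genes tested, of which 35.2% were higher. After centring the Ran cycle had 4 lower (57.1%). Its 2 genes with the smallest p were Rangrf (-1.05) and Rcc2 (-0.86). Of 23 TREX and mRNA export genes, 14 fell and 3 rose, led by the helicases Ddx19b (-1.46) and Ddx19a (-1.01), close paralogues, for which the sharing of reads was not tested. After centring 10 of this list were lower (43.5%) and 5 higher (21.7%), with Ddx19b at -0.98 and Ddx19a at -0.53. The nuclear envelope and LINC list had 5 higher, 2 lower and 4 not called genes of 11 and a median of 0.15. Syne2, which links the envelope to the cytoskeleton, rose from 608 ± 44.4 to 14264 ± 701 (4.55, adjusted p = 1.5e-08), and Lbr, the lamin B receptor, fell from 8552 ± 372 to 1929 ± 65.1 (-2.15, adjusted p = 1.7e-07).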

How the data were processed

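Poly(A) RNA from 6 libraries was sequenced with a stranded mRNA kit, per the labels' protocols. Tools named in the submitters' processing notes are DESeq 1.22.1, HTSeq 0.5.3, STAR 2.5.0a and cutadapt 1.6, with the build mm10. The authors deposited 1 table in which each value is a signal, the read count of a gene scaled by DESeq, per the file header. The strand setting of the counting is not given in the sources used. Values were whole multiples of 1 step per library within 0.001 read, which gave back the reads. The table holds no gene under 15 reads in all.

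Log2(scaled count + 1) was fitted with limma 3.58.1 (lmFit, eBayes with trend) for genes whose mean over the 6 libraries was 10 or more, with Benjamini-Hochberg adjustment over all genes tested and a threshold of 0.05. Fold changes on this scale understate those of low genes. Groups came from the sample titles, and no batch or pairing is given. Positions, exon length and overlaps came from GENCODE M21 (GRCm38), start regions from RefSeq (GRCm38.p6). Shares of a gene in its family were tested with exact two-sided permutation tests, which cannot go below 0.1 here. Those of the importin beta family and of the NXT cofactors were added after the data were seen. A family here holds only genes of the symbol rule, so other karyopherins are not in the totals. Over 20 shares the smallest adjusted p was 0.125. Intervals on reads cover counting error only.

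The genes and lists were chosen with earlier results of these data known. Every gene of the symbol rule was named, with values in each library for those called at 2-fold or more, the highest in each role group and every importin alpha. In the other lists the 2 called genes with the smallest p were named. A further list counted in their total is not reported here. Alternatives were pseudocounts 0.5 and 5, a minimum mean of 50, no filter, TMM, quantile scaling, eBayes without trend or robust, edgeR 4.0.16, DESeq2 1.42.0, chromosome centring and leaving out each library. The main test was also tested on simulated data. Software was Python 3.11.15 (matplotlib 3.10.9, numpy 2.4.6, pandas 2.3.3) and R 4.3.3.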

Additional observations from a re-analysis of the deposited data

How the results depend on the processing

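No paired analysis was possible because the control replicates are numbered 1 to 3 and the clones 5 to 7, so the groups share no number. Under the alternatives run, no gene of the family called in 1 direction was called in the other. Leaving out each library gave 23 to 30 lower and 4 to 6 higher genes, medians of -0.46 to -0.36 for the family and -0.40 to -0.26 for the other transport genes (-0.40 without control replicate 3), and -1.25 to -1.08 for Exosc2. Quantile scaling moved the medians to -0.51 and -0.48. Without length correction the clone minus control shares were 2.82 points for Kpna2, -16.4 for Kpna3, 4.53 for Kpna1, 5.61 for Kpna4, 2.29 for Kpna7, 8.02 for Xpo6, -1.57 for Xpo7 and 31.8 for Nxt2. The cause of these moves was not tested.

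Signs turned for Nupl1, no longer called then, and for genes and medians that had not been called; Ipo4 and Nxf1 were called after centring. With quantile scaling the values were -0.10 for the importin alpha median, -0.088 for Nxf1 and so for the mRNA export median, -0.027 for Ndc1 and so for the transmembrane median, -0.14 for Xpo6, -0.035 for Kpna1 and 0.54 for Nup210l. With chromosome centring they were -0.32 for Nxf1, 0.51 for Ipo4, 0.18 for Kpna6, -0.019 for Kpna1, 0.094 for Nupl1 and 0.10 for Ipo7. With edgeR Xpo6 was at -0.00281. Leaving out each library gave ranges of -0.021 to 0.15 for the importin alpha median, -0.019 to 0.15 for Nxf1, which sets the mRNA export median, -0.056 to 0.078 for Xpo6, -0.22 to 0.010 for Kpna6, -0.085 to 0.077 for Kpna2, -0.11 to 0.043 for Ipo8 and -0.26 to 0.11 for Ipo4. The libraries that turned these signs were control replicate 1 (Kpna2, Ipo8), 2 (importin alpha, Ipo4) and 3 (Nxf1, Xpo6, Kpna6) and clones 6 (Kpna2) and 7 (Ipo8). Besides centring and left-out libraries, calls were lost for Nup205, Kpnb1, Nup50 and Nup54 with eBayes without trend, Nup205 also with a pseudocount of 0.5 and no filter, Nupl2 with quantile scaling, and Pom121l2 with edgeR (1.45) and DESeq2 (1.48). Depth limits Kpna7, Pom121l2, Kpna2-ps and Nup62cl, each with few reads in at least 1 group.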
